A study of Mus musculus with 6 samples.

Results

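The genes described here are 10 genes listed as natural killer (NK) cell and cytotoxic genes, found by their symbols among the 25701 genes of a count table. Which cells expressed each of them here was not tested. The genes are *Fcrl6*, *Sh2d1b2*, *Ncr1*, *Klrb1c*, *Klrk1*, *Nkg7*, *Gzma*, *Gzmb*, *Prf1* and *Eomes*. They were measured by bulk RNA sequencing of CD11b+ cells from TC1 tumors, a mouse lung epithelial tumor line grown under the skin, in 3 MCT2 CO and 3 MCT2 KO mice. All mice carried MCT2loxP/loxP; Cre+ on a C57BL/6 background. MCT2 KO mice received tamoxifen at 8 weeks of age and MCT2 CO mice received vehicle only, TC1 cells were injected into the flank 2 days later, and tumors were taken after 24 days. The deletion of *Slc16a7*, the gene of MCT2, was systemic and not restricted to 1 cell type, the TC1 cells kept their own copies, and tamoxifen and deletion cannot be told apart in this design. The labels give the tissue as lung, whereas the study's methods place the tumors in the flank. Cells were selected with CD11b beads after the tumors were digested.

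NK cells are lymphocytes that kill other cells without prior priming. Activating and inhibitory surface receptors set whether they fire, and killing runs through perforin, which opens the target membrane, and granzymes, proteases that enter behind it. Cytotoxic T cells use the same granule proteins, and mature mouse NK cells carry CD11b, so that a CD11b selection can retain them.

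The genes were chosen from a list of NK-cell and cytotoxic genes with their MCT2 KO against MCT2 CO values in these same 6 samples known. Their differences between the groups are therefore given as a description, and calls on them are not read as tests. Total counts were 24863611 to 31713704 per sample. *Slc16a7* itself had 481, 287 and 298 counts in MCT2 CO and 196, 162 and 133 in MCT2 KO, a log2 fold change of -1.05 (SE 0.24). On the first principal component MCT2 CO replicate 3 stood apart at -22.7, and on the second MCT2 KO replicate 2 stood apart at -22.5, so values without MCT2 KO replicate 2 are given beside the results that it moves. Over the 13485 genes with enough counts, edgeR called 0 genes (0%) at an adjusted p of 0.05 and a log2 fold change of at least 0.58, while 1264 genes had an unadjusted p under 0.05 and DESeq2 called 83 of 18508 genes (0.448%).

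The stretches around the start sites of 5 of these genes are shown because they include the pair that was highest in MCT2 KO relative to MCT2 CO, the pair of granzymes that went opposite ways, and the single gene with a T-box match. Each runs from 250 bases before to 50 bases after the RefSeq start on GRCm38.p6, 5′ to 3′ on the gene's strand. Capitals mark a match to AGGTGTG, a T-box word of the kind bound by Eomes and Tbx21, or to TGTGGTT, a Runx word, on either strand, and a stretch in lower case throughout held neither.
Fcrl6 (chr1:172602502-172602801, minus strand): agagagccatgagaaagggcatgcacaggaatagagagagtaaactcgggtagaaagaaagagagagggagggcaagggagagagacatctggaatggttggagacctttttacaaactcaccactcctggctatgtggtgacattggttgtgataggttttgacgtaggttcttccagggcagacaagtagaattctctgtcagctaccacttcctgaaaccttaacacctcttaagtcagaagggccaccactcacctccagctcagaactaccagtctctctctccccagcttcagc
Sh2d1b2 (chr1:170232621-170232920, plus strand): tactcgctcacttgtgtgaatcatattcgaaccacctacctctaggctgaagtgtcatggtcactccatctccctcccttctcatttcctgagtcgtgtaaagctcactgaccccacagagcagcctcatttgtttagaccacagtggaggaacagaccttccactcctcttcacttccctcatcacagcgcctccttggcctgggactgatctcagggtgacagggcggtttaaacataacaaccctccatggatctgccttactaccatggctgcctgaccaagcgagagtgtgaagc
Gzma (chr13:113100932-113101231, minus strand): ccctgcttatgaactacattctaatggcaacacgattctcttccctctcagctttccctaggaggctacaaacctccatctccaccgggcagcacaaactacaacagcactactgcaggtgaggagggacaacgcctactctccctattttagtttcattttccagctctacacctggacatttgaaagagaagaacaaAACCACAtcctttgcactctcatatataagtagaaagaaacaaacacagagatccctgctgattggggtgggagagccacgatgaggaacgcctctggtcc
Gzmb (chr14:56262285-56262584, minus strand): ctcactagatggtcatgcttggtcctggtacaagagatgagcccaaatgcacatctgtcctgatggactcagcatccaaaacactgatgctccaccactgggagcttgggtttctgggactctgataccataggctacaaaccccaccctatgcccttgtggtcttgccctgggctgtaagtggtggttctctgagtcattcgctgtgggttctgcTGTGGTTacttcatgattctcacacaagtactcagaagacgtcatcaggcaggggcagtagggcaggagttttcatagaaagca
Nkg7 (chr7:43436888-43437187, plus strand): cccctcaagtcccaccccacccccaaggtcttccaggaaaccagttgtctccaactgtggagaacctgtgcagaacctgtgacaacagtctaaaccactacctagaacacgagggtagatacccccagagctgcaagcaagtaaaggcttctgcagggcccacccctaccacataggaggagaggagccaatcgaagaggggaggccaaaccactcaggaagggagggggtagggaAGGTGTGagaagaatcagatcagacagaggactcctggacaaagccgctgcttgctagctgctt
The T-box word was found for 1 of the 10 genes, *Nkg7*, and in 5.84% of 32851 windows of the same length over all genes. The Runx word was found for 4 of the 10, *Ncr1*, *Klrk1*, *Gzma* and *Gzmb*, and in 5.27% of all windows. *Gzma* and *Gzmb*, whose fold changes had opposite signs, both held the Runx word.

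All 10 genes passed the filter on low counts. In MCT2 KO, 5 had a positive and 5 a negative log2 fold change, with a median of 0.08, where all genes tested split into 6753 positive and 6732 negative with a median of 0.0004. Without MCT2 KO replicate 2 the split of the 10 was 6 positive and 4 negative, with a median of 0.47. That of all genes was then 6772 and 6871, with a median of -0.002. Every MCT2 KO sample lay above every MCT2 CO sample for 2 of the 10, *Fcrl6* and *Sh2d1b2*, against 7.07% of all genes tested. Every MCT2 KO sample lay below every MCT2 CO sample for 3, *Ncr1*, *Klrb1c* and *Gzma*, against 8.77% of all genes tested. None of the 10 was among the edgeR calls (0% of all genes tested), and limma-voom called none. An unadjusted edgeR p under 0.05 was found for 4 of the 10, against 1264 of the 13485 genes tested. DESeq2 called 3 of the 10, *Fcrl6*, *Sh2d1b2* and *Gzma*, against 0.448% of 18508 genes. Since the choice of genes used this contrast, nothing is read from these counts. In bulk RNA, fewer cells of a type and less RNA per cell cannot be told apart.

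**Figure D1:**
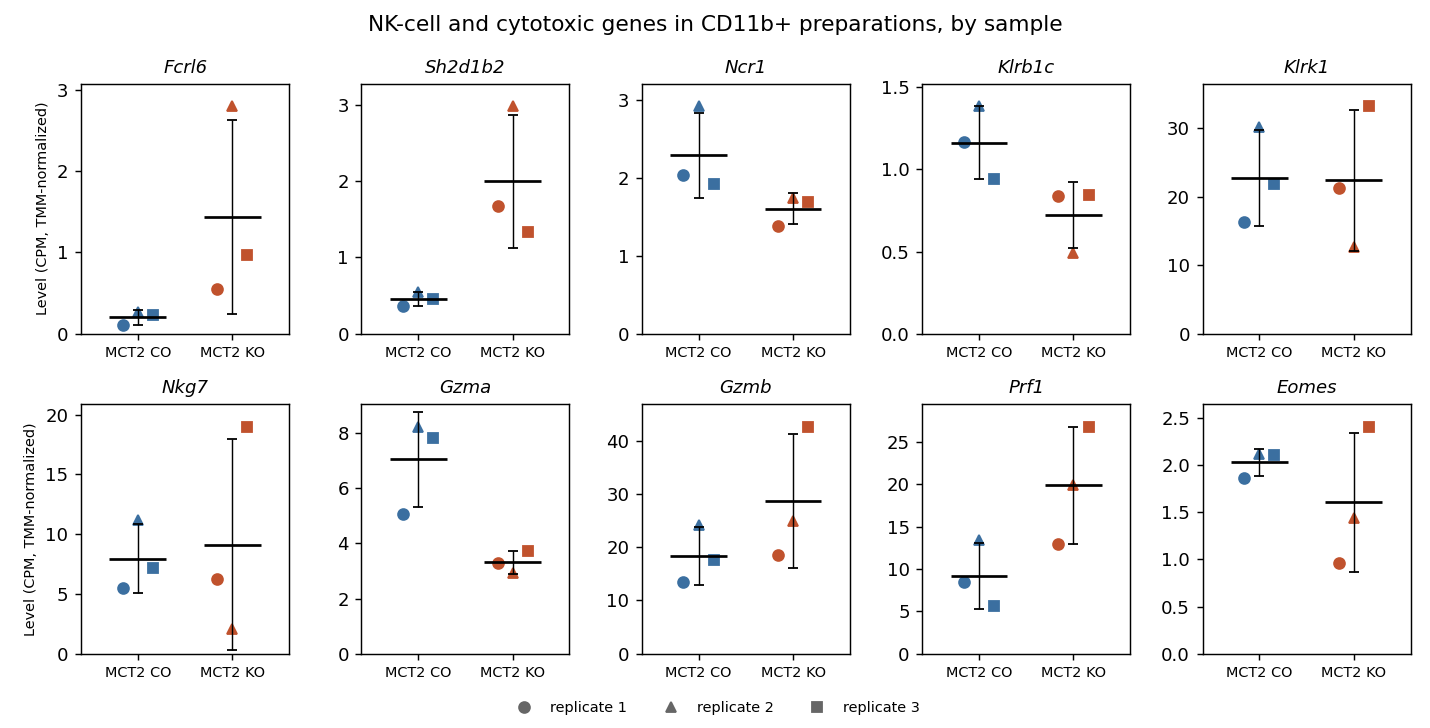
Level of each of the 10 genes in CPM (counts scaled to library size, TMM-normalized, linear axes from 0, a separate scale for each gene) in the 3 MCT2 CO and 3 MCT2 KO samples. Points are samples, with the marker shape giving the replicate number, thick lines are group means and thin bars the SD. *Fcrl6* and *Sh2d1b2* separate upward and *Ncr1*, *Klrb1c* and *Gzma* downward in MCT2 KO, and MCT2 KO replicate 2 is the highest sample for *Fcrl6* and the lowest for *Nkg7*.

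*Fcrl6* (chr1:172596642-172602551, minus strand, GRCm38) encodes an Fc receptor-like membrane protein. Reads numbered 3, 7 and 6 in the MCT2 CO samples, in replicate order, and 13, 91 and 24 in the MCT2 KO samples. Its mean level in counts scaled to library size (CPM, TMM-normalized) was 0.198 ± 0.0878 for MCT2 CO against 1.43 ± 1.20 for MCT2 KO (mean ± SD of 3 samples each), a log2 fold change of 2.88 (SE 0.70). The groups did not overlap, and MCT2 KO replicate 2 held most of the reads. Without that replicate the log2 fold change was 1.93, and it lay between 1.93 and 3.27 as each sample was left out. The 95% exact Poisson interval, which covers counting error only, was 0.619 to 8.77 for the 3 counts of MCT2 CO replicate 1 and 73.3 to 112 for the 91 counts of MCT2 KO replicate 2. Among all genes tested, *Fcrl6* had the 3rd highest log2 fold change.

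*Sh2d1b2* (chr1:170232749-170253608, plus strand) encodes an adaptor of the SLAM receptor family, whose members pass signals from NK-cell surface receptors. It had 11, 14 and 12 counts in MCT2 CO and 40, 97 and 33 in MCT2 KO, and the means were 0.452 ± 0.0858 and 1.99 ± 0.870 CPM. The log2 fold change was 2.15 (SE 0.38), 1.73 without MCT2 KO replicate 2. All 3 MCT2 KO samples were well above the highest MCT2 CO sample. Its neighbor *Sh2d1b1*, which encodes the related adaptor, was at 40.5 ± 8.10 CPM in MCT2 CO and 48.8 ± 16.03 CPM in MCT2 KO (log2 fold change 0.27, SE 0.25, edgeR adjusted p = 0.771). The ratio of *Sh2d1b2* to *Sh2d1b1* counts was 0.00776, 0.0126 and 0.0143 in MCT2 CO and 0.0275, 0.0971 and 0.0242 in MCT2 KO. Of the 50-base words in *Sh2d1b2* transcripts, 13.4% also occur in *Sh2d1b1*, so a share of its reads could not be assigned to it alone.

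*Sh2d1b2* and *Fcrl6* lie 2343 kb apart on chromosome 1. Of the 70 genes between them 56 were tested, and 45 of these had positive and 11 negative log2 fold changes, with a median of 0.16 and a range of -0.46 to 0.74. Every MCT2 KO sample was above every MCT2 CO sample for 11 of the 56 (7.07% of all genes tested) and below for 0 (8.77% of all genes tested). No gene of the interval came near the fold changes of the 2 genes at its ends. The interval was chosen after its values were seen.

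*Ncr1* encodes NKp46, an activating receptor that marks NK cells. Its levels were 2.03, 2.92 and 1.92 CPM in MCT2 CO and 1.38, 1.75 and 1.69 CPM in MCT2 KO. The highest MCT2 KO sample was just under the lowest MCT2 CO sample, and the log2 fold change was -0.51 (SE 0.25). *Klrb1c*, the gene of NK1.1, stood at 1.17, 1.38 and 0.941 CPM in MCT2 CO and 0.838, 0.491 and 0.843 CPM in MCT2 KO. Again the groups separated, by a log2 fold change of -0.70 (SE 0.31), -0.47 without MCT2 KO replicate 2. These are low values, 16 to 36 counts per sample, and 39.2% of *Klrb1c* exon bases lie inside the span of another gene, *Gm44511*. *Klrk1* encodes NKG2D, an activating receptor of NK cells and of CD8 T cells. It was at 16.2, 30.2 and 21.9 CPM in MCT2 CO and 21.3, 12.7 and 33.2 CPM in MCT2 KO. These groups overlapped fully, with means of 22.8 ± 7.01 and 22.4 ± 10.3 CPM and a log2 fold change of -0.03 (SE 0.34).

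*Eomes*, a T-box transcription factor of NK cells and effector CD8 T cells, was even across MCT2 CO at 1.87, 2.12 and 2.11 CPM. In MCT2 KO it was spread from 0.964 CPM in replicate 1 through 1.44 CPM in replicate 2 to 2.41 CPM in replicate 3. The groups overlapped, and the log2 fold change was -0.34 (SE 0.33). The summed level of *Ncr1*, *Klrb1c* and *Eomes* was 5.07, 6.42 and 4.97 CPM in MCT2 CO and 3.19, 3.68 and 4.94 CPM in MCT2 KO. The sum was lower in each MCT2 KO sample than in any MCT2 CO sample, by a narrow margin for replicate 3. Of all genes tested, 8.77% lay lower in every MCT2 KO sample. These 3 genes were chosen with their values known, so nothing is read from their sum. *Klrd1*, a further NK receptor gene, was at 7.93 ± 1.76 and 7.97 ± 3.36 CPM (log2 fold change 0.00, SE 0.31). The 27 NK receptor genes tested split into 14 positive and 13 negative.

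*Gzma* (chr13:113093825-113100981, minus strand) encodes granzyme A. Its counts were 152, 214 and 208 in MCT2 CO and 78, 95 and 93 in MCT2 KO, or 7.04 ± 1.72 and 3.31 ± 0.411 CPM. The MCT2 KO samples sat close together, all under the lowest MCT2 CO sample, and the log2 fold change of -1.09 (SE 0.22) stayed between -1.28 and -0.96 as each sample was left out. *Gzmb*, the gene of granzyme B, was at 13.4, 24.2 and 17.7 CPM in MCT2 CO and 18.4, 24.96 and 42.7 CPM in MCT2 KO. The groups overlapped, with MCT2 KO replicate 3 highest, and the log2 fold change was 0.64 (SE 0.32). Without MCT2 KO replicate 3 it was 0.25.

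*Prf1* (chr10:61297833-61304680, plus strand) encodes perforin. Its levels were 8.44, 13.4 and 5.68 CPM in MCT2 CO and 13.0, 19.9 and 26.8 CPM in MCT2 KO. Only MCT2 CO replicate 2 and MCT2 KO replicate 1 overlapped, and the log2 fold change was 1.12 (SE 0.34), from 0.86 to 1.49 as each sample was left out. *Nkg7*, whose product is a membrane protein of cytotoxic granules, had 5.54, 11.2 and 7.19 CPM in MCT2 CO and 6.29, 2.09 and 19.0 CPM in MCT2 KO. Its MCT2 KO samples held both the lowest and the highest value of the 6. The log2 fold change was 0.19 (SE 0.66), -0.94 without MCT2 KO replicate 3 and 0.67 without MCT2 KO replicate 2.

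Per kilobase of exon, *Gzmb* was the highest of the 10 genes in both groups, at 12.8 and 20.0 CPM per kb in MCT2 CO and MCT2 KO. *Nkg7* followed at 8.71 and 9.98 CPM per kb. The next gene was *Gzma* in MCT2 CO, at 7.0 CPM per kb, and *Prf1* in MCT2 KO, at 7.70 CPM per kb. *Fcrl6* was the lowest in MCT2 CO at 0.0741 CPM per kb and reached 0.536 CPM per kb in MCT2 KO. The samples of *Nkg7* overlapped with those of *Gzma* in MCT2 CO and with those of *Prf1* in MCT2 KO. The order also depends on the length used, here all annotated exons of a gene, and intronic reads may be counted. For *Klrk1* these exons hold 7183 bases, against 3197 bases in its longest protein-coding transcript.

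Ratios within a sample do not depend on its depth. The counts of *Gzmb* over *Gzma* were 2.64, 2.94 and 2.26 in MCT2 CO and 5.64, 8.56 and 11.4 in MCT2 KO. The counts of *Prf1* over *Ncr1* were 4.15, 4.58 and 2.96 in MCT2 CO and 9.39, 11.4 and 15.9 in MCT2 KO. In both ratios the lowest MCT2 KO sample was above the highest MCT2 CO sample. The counts of *Gzma* over *Ncr1* separated the other way. They were 2.49, 2.82 and 4.08 in MCT2 CO and 2.36, 1.67 and 2.21 in MCT2 KO. Against the T-cell gene *Cd8a* the groups overlapped, since the counts of *Prf1* over *Cd8a* were 1.35, 1.05 and 0.795 in MCT2 CO and 1.46, 20.9 and 1.01 in MCT2 KO, with MCT2 KO replicate 2 far above the rest. These ratios rest on genes chosen with these values known, so nothing is read from their separation. The share of gene pairs that separate in this way over all genes was not computed.

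**Figure D2:**
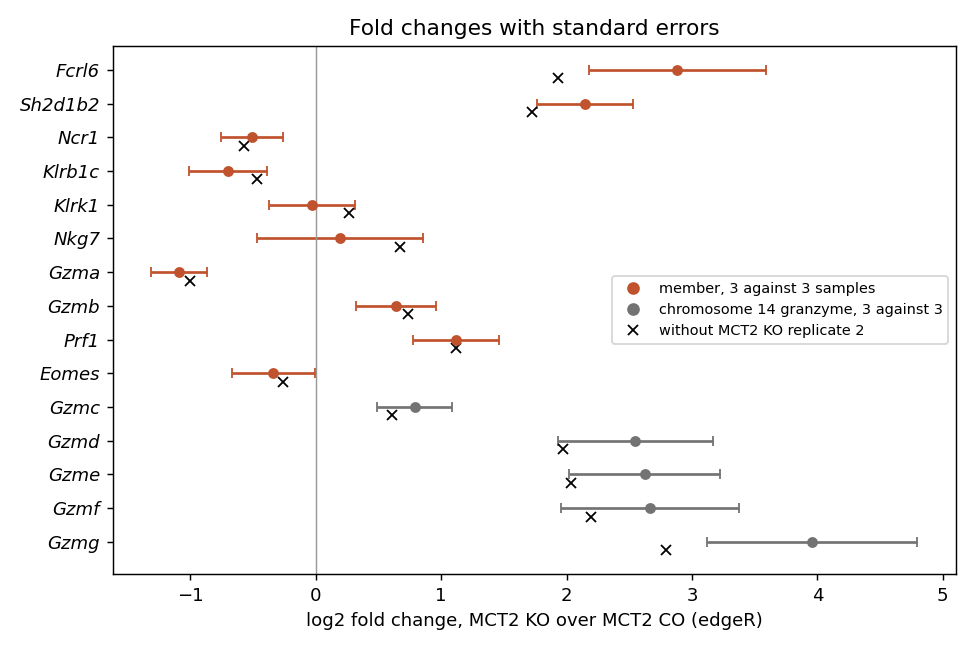
The edgeR log2 fold change of MCT2 KO over MCT2 CO (horizontal axis) for the 10 genes and for 5 further granzyme genes of chromosome 14. Bars are 1 standard error, derived from the quasi-likelihood F statistic, and crosses mark the fit without MCT2 KO replicate 2. The crosses of *Fcrl6* and *Gzmg* lie furthest from their points, at 1.93 against 2.88 and 2.79 against 3.96, and those of *Klrk1* and *Nkg7* lie at 0.26 and 0.67.

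Further granule and effector genes were compared from a list of 26 genes, of which 25 were tested. This list and those below were also chosen with earlier results of these data known, so their p-values and counts are a description. Of the 25, 19 had positive and 6 negative log2 fold changes, with a median of 0.26. edgeR called 0, with a smallest adjusted p of 0.370, and 10 had an unadjusted p under 0.05 (1264 of the 13485 genes over all). DESeq2 called 1, *Gzmg* (0.448% of all genes). Every MCT2 KO sample was above every MCT2 CO sample for 7 of them (7.07% of all genes tested) and below for 1 (8.77% of all genes tested). Without MCT2 KO replicate 2 the split was 21 positive and 4 negative, against 6772 and 6871 over all genes.

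Of these 7, 5 are granzyme genes in the cluster that includes *Gzmb* on chromosome 14 (chr14:56117626-56262260), which encode proteases related to granzyme B. *Gzmg* was at 2.17, 2.54 and 0.226 CPM in MCT2 CO and 10.4, 53.7 and 12.6 CPM in MCT2 KO (log2 fold change 3.96, SE 0.84, edgeR adjusted p = 0.370). MCT2 KO replicate 2 was highest and MCT2 CO replicate 3 lowest, and the value was 2.79 without the former and 3.45 without the latter. *Gzmf* was at 7.80, 16.2 and 1.24 CPM in MCT2 CO and 30.1, 82.9 and 46.6 CPM in MCT2 KO (log2 fold change 2.67, SE 0.71, edgeR adjusted p = 0.396). *Gzmd* was at 4.40 ± 2.97 and 25.7 ± 14.96 CPM (2.55, SE 0.62, edgeR adjusted p = 0.380) and *Gzme* at 2.50 ± 1.69 and 15.4 ± 8.86 CPM (2.62, SE 0.60, edgeR adjusted p = 0.370). In each of these genes the order of samples was alike, with MCT2 CO replicate 3 lowest and MCT2 KO replicate 2 highest.

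*Gzmc*, the most highly expressed of the 5, differed less, at 50.5, 48.0 and 21.7 CPM in MCT2 CO and 66.3, 85.6 and 55.6 CPM in MCT2 KO (log2 fold change 0.79, SE 0.30, edgeR adjusted p = 0.498). Together *Gzmd*, *Gzme*, *Gzmf* and *Gzmg* summed to 19.7, 28.2 and 3.01 CPM in MCT2 CO and 64.6, 204.9 and 90.3 CPM in MCT2 KO. Near-identical sequence limits how far these 4 can be told apart, since 21.9%, 20.6%, 19.4% and 19.8% of the 50-base words of *Gzmd*, *Gzme*, *Gzmf* and *Gzmg* transcripts occur in other genes too, against 4.14% for *Gzmc* and 0% for *Gzmb*. None of the 5 passed the edgeR threshold.

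**Figure D3:**
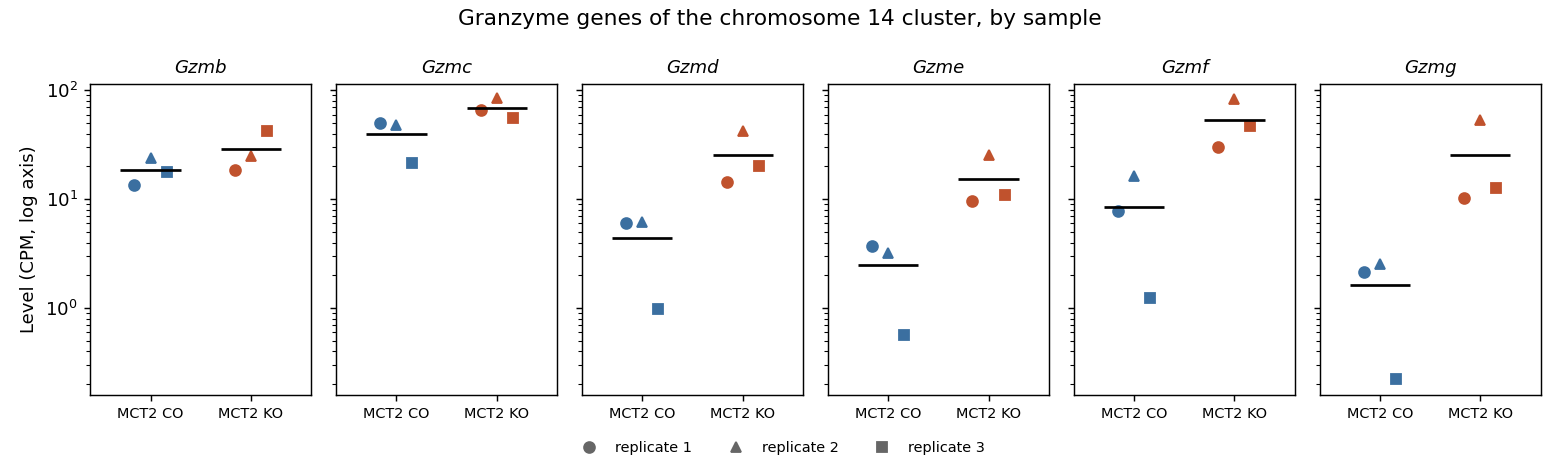
Level of *Gzmb* to *Gzmg* in CPM (shared logarithmic axis) in the 3 MCT2 CO and 3 MCT2 KO samples, with points for samples, marker shapes for replicate numbers and lines for group means. MCT2 CO replicate 3 is lowest for the genes *Gzmc* to *Gzmg* and MCT2 KO replicate 2 highest, whereas for *Gzmb* the highest sample is MCT2 KO replicate 3 at 42.7 CPM.

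Of the other genes of the granule list, *Csf2* and *Lamp1* complete the 7. *Csf2*, which encodes a growth factor of myeloid cells, had a log2 fold change of 1.18 (SE 0.50, edgeR adjusted p = 0.533). *Lamp1*, a lysosomal membrane protein that reaches the surface of degranulating cells, had 0.25 (SE 0.10, edgeR adjusted p = 0.502), and part of its exons lies inside the span of another gene. The gene that lay lower in every MCT2 KO sample was *Xcl1*, a chemokine of NK and T cells, at 4.68 ± 1.34 CPM in MCT2 CO and 2.42 ± 0.719 CPM in MCT2 KO (log2 fold change -0.96, SE 0.31, edgeR adjusted p = 0.436). The genes with the highest levels in the list, *Ctsc*, *Lamp1*, *Srgn* and *Ccl5*, are also expressed by myeloid cells, and *Ctsc* (0.28), *Srgn* (0.08) and *Ccl5* (0.07) had small log2 fold changes.

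Other genes with roles in NK cells are given by list. Some of them stood far above *Ncr1*, which was at 2.29 ± 0.549 CPM in MCT2 CO. Examples are *Fcer1g* at 314 ± 63.6 and *Tyrobp* at 277 ± 28.5 CPM in MCT2 CO. Which cells these reads came from was not tested, so the lists are not measures of NK cells alone. Of 27 NK receptor genes tested 14 had positive and 13 negative log2 fold changes, with a median of 0.00. There were 0 edgeR and 0 DESeq2 calls, and 3 genes had an unadjusted edgeR p under 0.05 (1264 of the 13485 genes over all). None was higher in every MCT2 KO sample, and 4 were lower in every one (8.77% of all genes tested), *Klra8*, *Klrb1a*, *Klri1* and *Crtam*. *Klra8*, which encodes the activating receptor Ly49H, was at 1.67, 2.88 and 1.13 CPM in MCT2 CO and 0.713, 0.859 and 1.00 CPM in MCT2 KO (log2 fold change -1.13, SE 0.38, edgeR adjusted p = 0.444), and 33.1% of its 50-base words occur in other genes too. *Klrb1a*, a relative of *Klrb1c*, had a log2 fold change of -1.55 (SE 0.49, edgeR adjusted p = 0.433), -1.16 without MCT2 KO replicate 2. It had only 16, 18 and 12 counts in MCT2 CO and 8, 3 and 4 in MCT2 KO. *Klrb1f* had a log2 fold change of -0.59 (SE 0.40, edgeR adjusted p = 0.671), -0.24 without that replicate. The 4 most abundant were *Klra2*, *Klra4*, *Cd244a* and *Slamf7*, with log2 fold changes of 0.18, 0.25, 0.38 and 0.13.

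Among 12 receptor adaptors and kinases 7 had positive and 5 negative log2 fold changes, with a median of 0.14. Without MCT2 KO replicate 2 the split was 12 and 0, with a median of 0.40. Over all genes it was then 6772 and 6871, with a median of -0.002, and for the macrophage markers 11 and 1, with a median of 0.39. Among 13 NK transcription factor genes the split was 6 and 7, with a median of -0.11, and without that replicate 7 and 6, with a median of 0.07. *Tbx21*, which encodes T-bet, was at 2.60 ± 1.24 CPM in MCT2 CO and 1.91 ± 1.08 CPM in MCT2 KO (log2 fold change -0.46, SE 0.50, edgeR adjusted p = 0.799). Among 16 genes of cytokine input the split was 12 and 4, with a median of 0.07, and without that replicate 16 and 0, with a median of 0.35. Among 8 ligands of NK receptors it was 6 and 2, with a median of 0.13. Of the 5 other Fc receptor-like genes, 4 were positive and 1 negative, with *Fcrl5* at a log2 fold change of 0.92 (SE 0.85), *Fcrlb* at 0.66, *Fcrl2* at 0.33, *Fcrla* at 0.27 and *Fcrl1* at -0.14. The groups overlapped for each of these 5 genes. edgeR and DESeq2 called 0 genes in each of these 5 lists, with 1 gene, of cytokine input, at an unadjusted edgeR p under 0.05.

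Lymphocyte markers other than those of NK cells varied between samples. The summed level of 18 T-cell markers was 77.0, 110 and 93.7 CPM in MCT2 CO and 92.6, 40.0 and 146 CPM in MCT2 KO. Of the 18, 9 had positive and 9 negative log2 fold changes, 0 were called by edgeR or DESeq2, with 0 at an unadjusted p under 0.05, and none was at 0 counts in all samples. Without MCT2 KO replicate 2 the split was 15 positive and 3 negative, with a median of 0.48, against 6772 and 6871 over all genes. MCT2 KO replicate 2 was lowest and MCT2 KO replicate 3 highest, the same order as for *Nkg7* and *Klrk1*. The part of T-cell RNA in the values of *Nkg7*, *Klrk1*, *Gzmb* and *Prf1* was not tested. For *Fcrl6* and *Sh2d1b2* the order was the reverse in MCT2 KO replicate 2, where both were highest while the T-cell sum was lowest.

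To see which genes varied together apart from the group difference, each gene's group mean was subtracted on the log2 CPM scale, and Pearson's r was taken over the 6 samples as a description. *Nkg7* and *Klrk1* varied together (r = 0.96), and *Nkg7* followed the T-cell gene *Cd3g* (r = 0.98) and *Cd8a* (r = 0.98). *Klrb1c* also followed *Cd3g* (r = 0.88). The NK receptor gene *Klrd1* was followed as closely, by *Nkg7* (r = 0.96), *Klrk1* (r = 0.93) and *Klrb1c* (r = 0.91). *Tbx21* was followed by *Klrk1* (r = 0.99), *Nkg7* (r = 0.91) and *Klrb1c* (r = 0.70). *Klrd1* and *Cd3g* themselves varied together (r = 0.98), so these values do not assign the 3 genes to T cells or NK cells. *Fcrl6* followed *Sh2d1b2* (r = 0.84), and both ran opposite to *Cd8a* (r = -0.62 and r = -0.82). *Prf1* varied with *Ncr1* (r = 0.89) and with *Gzmf* (r = 0.80), and *Gzmb* with *Eomes* (r = 0.88). Only 4 degrees of freedom remain after 2 means are subtracted from 6 samples, and 1 sample, MCT2 KO replicate 2, carries much of the pattern.

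**Figure D4:**
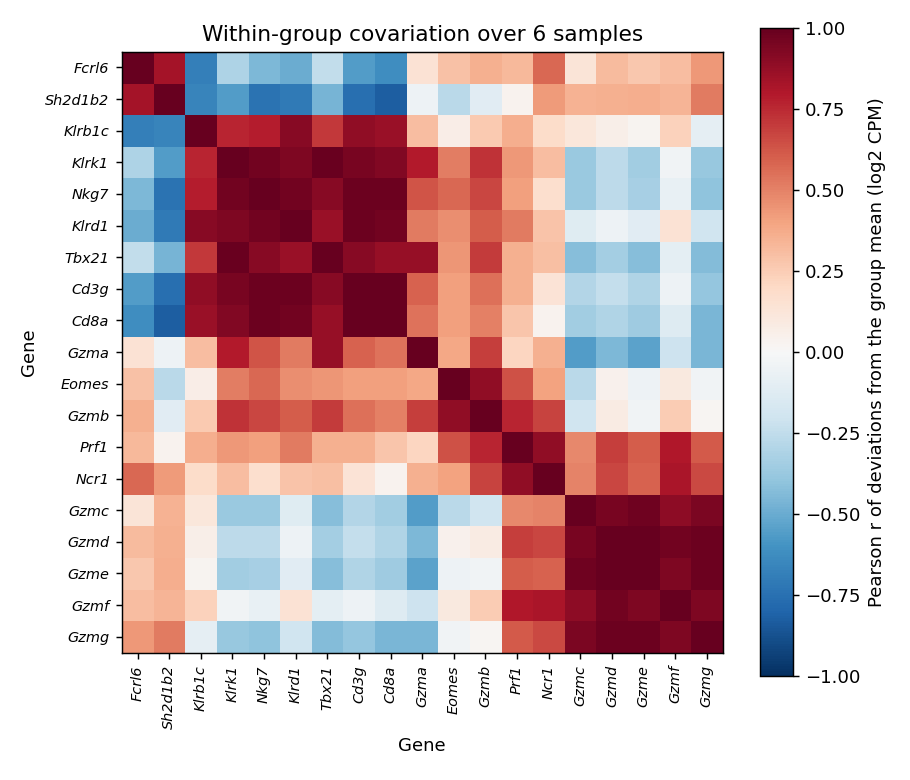
Pearson's r (color scale from -1 to 1) of within-group deviations in log2 CPM over the 6 samples, for the 10 genes, 5 chromosome 14 granzyme genes and the lymphocyte genes *Klrd1*, *Tbx21*, *Cd3g* and *Cd8a*. The order of the genes was set by hand. *Klrk1* and *Nkg7* vary with the T-cell genes and with *Klrd1* and *Tbx21*, and *Gzmc* to *Gzmg* with each other. *Fcrl6* and *Sh2d1b2* have r = 0.84, but *Sh2d1b2* ranked only 921st of 13484 genes by likeness to *Fcrl6*.

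The 5 genes most like *Fcrl6* by this measure were *Farp1* (r = 0.999), *Bub1b* (r = 0.998), *Snap47* (r = 0.998), *E2f6* (r = 0.997) and *Etv5* (r = 0.997). Of 13484 genes, 462 had r of at least 0.9, and *Sh2d1b2* ranked 921st. The 5 most like the mean of the other 9 genes were *Dgkg*, *Phf11c*, *Ip6k1*, *Pitpnm3* and *Gbp2b*. With 6 samples, many genes reach such values. *Fcrl6* itself had r = 0.04 with the mean of the other 9 genes and ranked 6231st of 13476 genes.

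Markers of other cell types are given beside these results, since their sums differed between samples. *Itgam*, the gene of CD11b itself, could not serve as a check, because 99.1% of its exon bases lie inside the span of *Gm49368* and it had 1 count over all samples. The 11 neutrophil markers summed to 111 to 127 CPM in MCT2 CO and 117 to 209 CPM in MCT2 KO, with 8 of the 9 tested positive and a median log2 fold change of 1.53. The macrophage markers, with all 12 tested positive and a median of 0.25, summed to 5795 to 7721 CPM in MCT2 CO and 6904 to 10903 CPM in MCT2 KO. All 8 B-cell markers tested were negative, with a median of -1.07. The B-cell markers summed to 81.1, 95.6 and 97.8 CPM in MCT2 CO and 98.2, 24.3 and 110 CPM in MCT2 KO. By this sum only MCT2 KO replicate 2 lay below the MCT2 CO samples. Without that replicate 2 of the 10 B-cell markers then tested were positive and 8 negative, with a median of -1.35. The plasmacytoid dendritic-cell markers, with all 7 tested negative and a median of -0.33, summed to 495 to 566 CPM and 376 to 479 CPM. Of the gamma-delta T-cell, mast-cell and basophil, and epithelial markers, 2, 3 and 2 were tested, and 1, 2 and 1 of these were positive. edgeR called 0 genes in each of these lists. An unadjusted edgeR p under 0.05 was found for 6 neutrophil, 1 macrophage, 4 B-cell, 2 plasmacytoid dendritic-cell, 1 gamma-delta T-cell and 1 mast-cell or basophil gene (1264 of the 13485 genes over all). DESeq2 called 5 neutrophil genes as higher and 3 B-cell genes as lower (0.448% of all genes, both directions). The part of these cell types in the values of the 10 genes was not tested.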

How the data were processed

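CD11b+ cells of 6 tumors were sequenced, 3 per group. The authors deposited raw read counts per gene, not normalized, and the submitters' processing notes name FastQC 0.12.0, MultiQC 1.28, STAR 2.7.11b, featureCounts 2.1.1, DESeq2 1.18.1 and GRCm38. The annotation, feature type and strand setting are not given in the sources used here. Gene lengths in the table equal the whole gene span for 100% of genes, so intronic reads may be counted, and reads of overlapping genes may be lost. The table's positions equal those of GENCODE M21 (GRCm38) for 2.19% of genes although 97.7% have the same span length, so the positions given here are those of GENCODE M21.

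From the counts, edgeR 4.0.16 (R 4.3.3) kept genes by filterByExpr, normalized by TMM and gave quasi-likelihood p-values, adjusted by Benjamini-Hochberg over 13485 genes. A gene was called at adjusted p of 0.05 and log2 fold change of at least 0.58. DESeq2 1.42.0 and limma 3.58.1 (voom) were alternatives, with other filters, a replicate block and leaving out each sample. The edgeR SE was derived as the absolute log2 fold change divided by the square root of the quasi-likelihood F statistic, not fitted directly. CPM are TMM-normalized and log2 CPM used a prior count of 2. The fits were tested on simulated data. Promoter windows came from RefSeq (GRCm38.p6), all 10 genes matched, and shared 50-base words from GENCODE M21 transcripts.

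The members and all gene lists were chosen with earlier results of these data known. Named genes were the members, the targeted gene, up to 4 list genes with the highest mean CPM, called genes, genes that share name or sequence with a member, *Tbx21*, and the 5 genes most like *Fcrl6* and the mean of the others. *Gzmd* to *Gzmg*, *Csf2*, *Lamp1*, *Xcl1*, *Klra8*, *Klri1*, *Crtam*, *Klrd1*, *Cd3g* and *Cd8a*, and the ratios of counts, were named after their values were seen. The labels say only that replicates are separate samples, so p-values measure only the spread between these samples.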

Additional observations from a re-analysis of the deposited data

How the results depend on the processing

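edgeR called 0 of the 10 genes and 0 of the listed NK genes, whereas DESeq2 called 79 genes among those that edgeR kept and 83 when every gene with a count entered, with 3 of the 10 (*Fcrl6*, *Sh2d1b2* and *Gzma*) and 1 list gene (*Gzmg*) each time. Without a low-count filter edgeR called 2 genes, and with each sample left out 0 to 2. The median log2 fold change of the 10 genes (0.08) was -0.24 by limma-voom and -0.12 with the replicate block, and ran from -0.47 to 0.47 with each sample left out (-0.12 without MCT2 CO replicate 1, -0.47 without MCT2 KO replicate 3, 0.47 without MCT2 KO replicate 2). Of 208 log2 fold changes for 15 genes under alternatives, 201 kept their sign, among them *Fcrl6* (1.93 without MCT2 KO replicate 2) and *Gzmg* (2.79 without it), and 7 changed sign. These genes were chosen with their values known and the alternatives refit the same counts, so this tally is a description only. *Klrk1* was 0.23 without MCT2 CO replicate 2, 0.01 without MCT2 KO replicate 1, 0.26 without MCT2 KO replicate 2 and -0.42 without MCT2 KO replicate 3. *Nkg7* was -0.36 by limma-voom, -0.18 with the block, -0.02 without MCT2 CO replicate 1, 0.67 without MCT2 KO replicate 2 and -0.94 without MCT2 KO replicate 3. The cause was not tested. Same-numbered samples correlated at 0.216, -0.247 and -0.161 in their deviations from the group means. Such deviations sum to 0 within each group, so these values cannot decide whether the numbers pair the samples. The replicate numbers are those of the labels, which state no pairing, and the library names of the MCT2 KO samples carry other numbers. The block left 0 genes called. A filter of CPM over 1 in at least 3 samples kept 8 of the 10 genes. The low counts of *Fcrl6* limit the precision of its fold change. The choices for *Gzmc* to *Gzmg*, and the list counts without MCT2 KO replicate 2, were added after the data were seen.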
